A study of Mus musculus with 4 samples.

Results

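The SR proteins and hnRNPs, 2 families of RNA-binding splicing factors, were followed across the USP9X knockdown of ID8 cells. All rows of the deposited gene table whose symbol begins with Srsf, Srrm and a number, with Hnrnp or with Srek1 were taken, 37 of the 22063 genes listed. They comprise 11 Srsf genes, 20 Hnrnp genes and 6 Srrm and Srek1 genes. The rule reads the symbol alone. Of these, 35 passed the filter on low counts and were tested among 11448 genes. Srsf12 and Srrm3 had a count of 0 in all 4 libraries and were not tested. At this depth, a count of 0 allows a share of up to 1.92e-05 percent of the counts in the library with the smallest total.

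ID8 is a mouse ovarian cancer line that arose from surface epithelium of the C57BL/6 ovary. Poly(A) RNA was sequenced from cells carrying a control shRNA (shCtrl, 2 libraries, labelled WT) and from cells carrying a lentiviral shRNA against USP9X (shUSP9X, 2 libraries), a deubiquitinase that removes ubiquitin from its substrate proteins. The cells are otherwise of the same line. Which of the shRNA sequences the sequenced cells carried, whether they were pools or clones, and whether the libraries came from separate cultures are not given in the sources used here, so p-values measure the spread between these libraries, which may be technical. The shCtrl libraries held 17232006 and 15611363 counts in total, the shUSP9X libraries 19978889 and 17021261. Usp9x itself had counts of 5169 and 4453 in shCtrl and of 390 and 346 in shUSP9X, a log2 fold change of -3.85 (SE 0.06, adjusted p = 4.7e-26, edgeR quasi-likelihood test with Benjamini-Hochberg adjustment).

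The line was compared with markers of its labelled origin. Of 9 ovarian surface epithelial markers, 8 were tested. Krt8, a simple epithelial keratin, had counts of 5441 and 5119 in shCtrl and of 11905 and 10141 in shUSP9X, and Krt18, Krt19, Msln and Wt1 were also abundant, with at least 4253 counts in every library. Of the 8 tested, 3 were higher and 4 lower in shUSP9X (37.5% and 50%, against 33.8% and 33.6% of all genes). Krt8 (0.92), Krt18 (0.64) and Krt19 (0.12) were the higher genes, and Msln (-0.47), Wt1 (-0.52) and Cdh2 (-0.50) were lower beside Lrrn4. With the trend in GC content and length removed, as described below, 4 were lower and 2 higher, against 25.4% and 38.6% of all genes. Krt19 turned to -0.13 (adjusted p = 5.6e-04), Cdh2 no longer passed (-0.09, adjusted p = 0.15), and Krt18 stood at 0.38. Krt7 was near 0, with counts of 0 and 0 in shCtrl and 2 and 3 in shUSP9X, and Lrrn4 had 23 and 17 against 9 and 5. Summed, the 9 markers took 0.252% and 0.256% of each shCtrl library and 0.281% and 0.275% of each shUSP9X library. Leukocyte markers were also counted. Of 10, 6 were tested, and 5 of these were higher in shUSP9X (83.3%, against 33.8% of all genes). Itgam, an integrin of myeloid cells, had counts of 0 and 0 in shCtrl and of 72 and 75 in shUSP9X, and the pan-leukocyte gene Ptprc had 0 and 0 against 29 and 18. Cd68, which other cells express too, was the most abundant, with 74 and 68 against 118 and 85, and Cd3e and C1qa were at 0 in every library. Summed, the 10 markers took 0.000435% and 0.000461% of each shCtrl library and 0.00172% and 0.00174% of each shUSP9X library, and their part in the results below was not tested.

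SR proteins carry an RNA recognition motif and a tail of alternating arginine and serine, and bind exonic enhancers to recruit the spliceosome. Many hnRNPs bind silencers and act against SR proteins at the same exons, and they also coat, export and stabilise transcripts. Both families are known to control their own amounts through splice forms that are degraded by nonsense-mediated decay, so the deposited gene level can join coding and non-coding forms of one gene. In bulk RNA, a change in cell makeup and a change of RNA per cell cannot be told apart.

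Sequences of the 3 most decreased and the 3 most increased members are shown because base composition tracked the fold changes across the whole table, as given further below. Each is the middle 60 bases of the longest coding exon, read 5′ to 3′ on the strand of the gene (GRCm38, GENCODE M21), with G and C in capitals. The Srek1 window lies in exon 9 of 12 at chr13:103752519-103752578 (minus strand), that of Hnrnpa3 in exon 4 of 10 at chr2:75661972-75662031 (plus strand), and that of Hnrnph1 in exon 6 of 14 at chr11:50382597-50382656 (plus strand). The Hnrnpl window lies in exon 8 of 13 at chr7:28818755-28818814 (plus strand), that of Srrm1 in exon 15 of 18 at chr4:135325020-135325079 (minus strand), and that of Srsf7 in exon 2 of 8 at chr17:80205909-80205968 (minus strand).
Srek1: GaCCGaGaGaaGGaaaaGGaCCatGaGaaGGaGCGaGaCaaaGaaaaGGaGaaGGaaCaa
Hnrnpa3: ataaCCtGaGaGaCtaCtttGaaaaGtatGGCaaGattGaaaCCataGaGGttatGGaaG
Hnrnph1: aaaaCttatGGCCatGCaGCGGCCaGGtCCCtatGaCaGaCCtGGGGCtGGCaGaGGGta
Hnrnpl: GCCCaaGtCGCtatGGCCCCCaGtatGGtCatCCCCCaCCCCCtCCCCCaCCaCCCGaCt
Srrm1: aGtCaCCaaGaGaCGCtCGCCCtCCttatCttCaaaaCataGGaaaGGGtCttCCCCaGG
Srsf7: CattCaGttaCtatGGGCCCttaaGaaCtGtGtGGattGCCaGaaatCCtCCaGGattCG
G and C made up 46.7% of the Srek1 window, 36.7% of the Hnrnpa3 window, 58.3% of the Hnrnph1 window, 68.3% of the Hnrnpl window, 51.7% of the Srrm1 window and 46.7% of the Srsf7 window. Over the whole coding sequence, the GC content was 48.0% for Srek1, 46.8% for Hnrnpa3 and 46.5% for Hnrnph1, and 53.4% for Hnrnpl, 53.4% for Srrm1 and 49.2% for Srsf7, so that the windows of Hnrnph1 and Hnrnpl are richer in GC than their genes.

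The members changed in both directions upon USP9X knockdown. At an adjusted p under 0.05, 14 of the 35 tested members were lower in shUSP9X, where 33.6 percent of all genes tested were lower, and 13 were higher, where 33.8 percent of all genes were higher. The members' shares were 40.0% and 37.1%, near the background on both sides. The median log2 fold change was 0.00 over the members and -0.00 over all genes, and the median absolute change was 0.33 and 0.38. At the cutoff named in the methods (a change of more than 1.5-fold at an unadjusted p under 0.05), 5 members were lower (14.3%), where 18.7 percent of all genes were, and 1 was higher (2.86%), where 10.8 percent were. CPM values, which are counts scaled to library size with TMM normalization, did not overlap between the groups for 29 of 35 members (82.9%), where 82.3 percent of all genes did not.

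**Figure D1:**
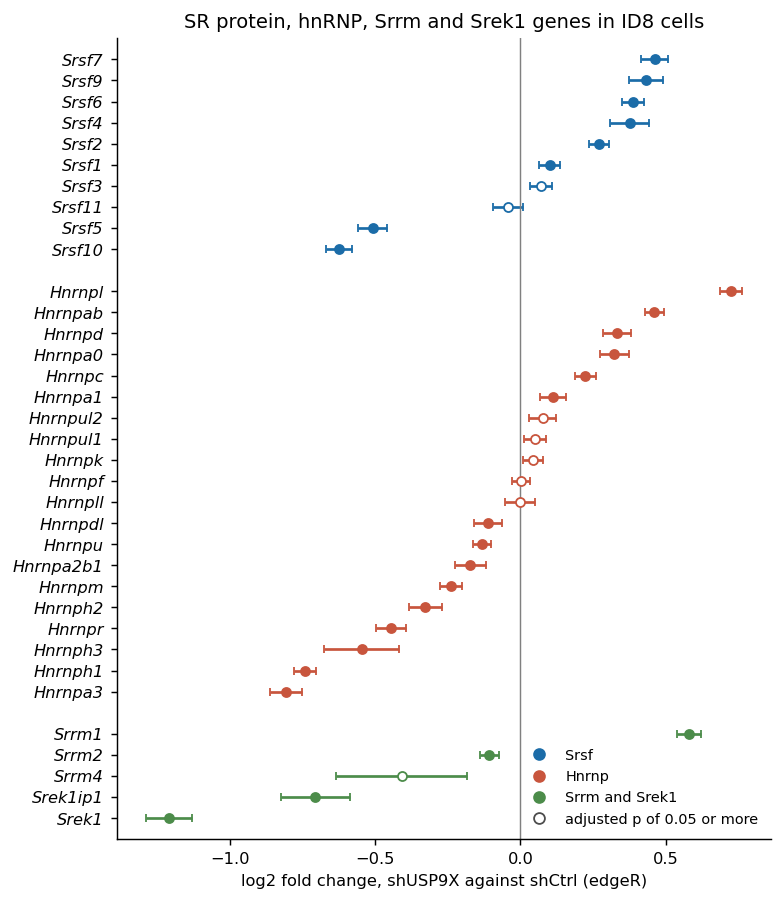
Log2 fold change of each of the 35 tested members (shUSP9X against shCtrl, 2 libraries each, edgeR) on the horizontal axis, with the standard error as a bar, ordered within the Srsf, Hnrnp, and Srrm and Srek1 groups. Filled points had an adjusted p under 0.05; values run from -1.21 for Srek1 to 0.73 for Hnrnpl.

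Among the Srsf genes, 6 of 10 tested were higher (60%, against 33.8% of all genes) and 2 were lower (20%, against 33.6%). A further 2 passed in neither direction, and the median log2 fold change was 0.19. Once the trend in GC content and length was removed, 7 were higher and 1 lower, against 38.6% and 25.4% of all genes. Srsf10, whose product represses splicing when dephosphorylated, had CPM of 207 and 193 in shCtrl and of 129 and 130 in shUSP9X. Both knockdown libraries lay below both controls, and Srsf10 fell by 0.63 on the log2 scale (SE 0.05, adjusted p = 4.8e-12). With the trend in GC content and length removed, as given below, its log2 fold change was -0.05 (adjusted p = 0.25). Srsf5, a shuttling SR protein, was the other member to fall. Its CPM were 250 and 221 in shCtrl and 162 and 170 in shUSP9X, a log2 fold change of -0.51 (SE 0.05, adjusted p = 1.1e-09). About 28.6% of the 50-base words of Srsf5 transcripts and 20.7% of those of Srsf10 also occur in transcripts of other genes, so their counts depend on how such reads were shared out.

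Before removal of the trend in GC content and length, Srsf7 had the largest rise of the family. It encodes an SR protein with a zinc knuckle beside its RNA recognition motif. With the trend removed, Srsf6 (0.96), Srsf3 (0.96) and Srsf1 (0.61) rose more than Srsf7 (0.35). This order depended on the transcript used for GC content and length. With the longest coding transcript, Srsf7 (1.27) rose more than Srsf6 and Srsf3 (each at most 0.96), and Srsf1 stood at -0.16. Srsf7 had CPM of 133 and 125 in shCtrl and of 181 and 176 in shUSP9X (log2 fold change 0.46, SE 0.05, adjusted p = 2.2e-09). The Srsf7 groups were far apart relative to their inner spread. Srsf9, a short SR protein related to Srsf1, had 59.9 and 62.1 CPM against 84.7 and 79.6 (0.43, SE 0.06, adjusted p = 4.5e-07; 0.15 with the trend removed). Srsf6, a paralog of Srsf4 and Srsf5, had 255 and 253 CPM against 327 and 338 (0.39, SE 0.04, adjusted p = 1.4e-09). In each of these genes both knockdown libraries lay above both controls, and neither Srsf6 nor Srsf9 shares a 50-base word with another gene. Srsf4 (0.38) and Srsf2 (0.27), which binds exonic enhancers and occurs in nuclear speckles, also rose, but 65.4% and 35.2% of their words are shared with other genes. Srsf4 overlaps the antisense gene Gm12992, and Srsf2 overlaps Mettl23 and Mfsd11 on the opposite strand. The library kit does not mark strand, so that reads of these pairs cannot be told apart.

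Srsf1, the founding member of the family, had CPM of 529 and 495 in shCtrl and of 544 and 554 in shUSP9X, a log2 fold change of 0.10 (SE 0.04, adjusted p = 0.018). The value was 0.61 with the trend in GC content and length removed, but -0.16 (adjusted p = 6.6e-05) when the longest coding transcript was used for that removal. Without that removal, the call depended on single libraries, with values of 0.05 (adjusted p = 0.094) without shCtrl replicate 2, 0.11 (adjusted p = 0.089) without shUSP9X replicate 1 and 0.09 (adjusted p = 0.20) without shUSP9X replicate 2. Srsf3, the smallest SR protein (0.07, adjusted p = 0.095), and Srsf11, a relative of Srek1 (-0.04, adjusted p = 0.46), did not pass the test. Srsf3 stood at 0.12 without shCtrl replicate 1 and at 0.03 without shCtrl replicate 2. With the trend removed it stood at 0.96, as given below.

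Among the Hnrnp genes, 9 of 20 were lower and 6 were higher (45% and 30%), where 33.6% and 33.8% of all genes were. The family median log2 fold change was 0.00. Once the trend in GC content and length was removed, 4 were lower and 12 higher, against 25.4% and 38.6% of all genes. Hnrnpa3, an hnRNP of the A/B group that binds and carries mRNA, had CPM of 1366 and 1094 in shCtrl and of 708 and 699 in shUSP9X. The controls differed from each other much more than the knockdown libraries did, yet both lay above them. Hnrnpa3 fell by 0.81 on the log2 scale (SE 0.06, adjusted p = 9.6e-13). With the trend in GC content and length removed, its log2 fold change was -0.27, or -0.71 with the longest coding transcript, as given below. Of its transcript words, 73.1% also occur elsewhere in the annotation, the highest share of the 37 members. Hnrnph1, which binds runs of G, had 419 and 404 CPM in shCtrl and 243 and 248 in shUSP9X (-0.74, SE 0.04, adjusted p = 2.0e-15), with 5.06% of words shared. The groups of Hnrnph1 were separated by far more than the difference within either. Its relative Hnrnph3 was far less abundant, with CPM of 16.5 and 14.5 against 10.3 and 10.98 (-0.55, SE 0.13, adjusted p = 5.8e-04), and it overlaps Rufy2 on the opposite strand. With the trend removed, Hnrnph1 was at -0.40 and Hnrnph3 at -0.27 (adjusted p = 0.063).

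The third gene of this G-run binding group, Hnrnph2, also fell (-0.33, adjusted p = 2.0e-05). It stood at -0.21 without shCtrl replicate 1 and at -0.43 without shCtrl replicate 2. Its direction turned with the trend in GC content and length removed, as given below. By contrast, Hnrnpf had 1041 and 1003 CPM against 1019 and 1027 and a log2 fold change of 0.00 (SE 0.03, adjusted p = 0.97). With the trend removed, Hnrnph2 and Hnrnpf stood at 0.20 and 0.18, or at 0.49 and -0.07 with the longest coding transcript. Shared words made up 31.6% of Hnrnph2 and 63.5% of Hnrnpf. Hnrnpr (-0.45) and Hnrnpm (-0.24), which bind mRNA and pre-mRNA, were lower, as was Hnrnpu (-0.13), a nuclear scaffold protein. Hnrnpu also turned with the trend removed (1.32). Hnrnpr then stood at -0.29, but at 1.49 with the longest coding transcript. Hnrnpa2b1 (-0.17, adjusted p = 0.0058) and Hnrnpdl (-0.11, adjusted p = 0.044) passed the test by less. Without shCtrl replicate 1 these became -0.01 (adjusted p = 0.81) and -0.01 (adjusted p = 0.83), and Hnrnpdl also lost its call without either shUSP9X library, at -0.11 (adjusted p = 0.13) without replicate 1 and -0.11 (adjusted p = 0.14) without replicate 2.

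Hnrnpl, which binds CA repeats, had the largest rise of all 35 members before removal of the trend in GC content and length. Its CPM were 285 and 281 in shCtrl and 463 and 473 in shUSP9X, a log2 fold change of 0.73 (SE 0.04, adjusted p = 1.6e-15). The replicates were nearly alike within each group. With the trend removed, Hnrnpl stood at 0.58, below Hnrnpu, Srsf6, Srsf3, Srrm2 and Srsf1. That order depended on the transcript used, since Srsf1 stood at -0.16 and Srsf7 at 1.27 with the longest coding transcript. An annotated gene, Gm44702, overlaps Hnrnpl on the opposite strand. Its paralog Hnrnpll, known for exon skipping in Ptprc in lymphocytes, had 118 and 115 CPM against 120 and 113 and a log2 fold change of -0.00 (SE 0.05, adjusted p = 0.98). Hnrnpab, which binds RNA and single-stranded DNA, had 990 and 931 CPM in shCtrl and 1330 and 1314 in shUSP9X (0.46, SE 0.03, adjusted p = 2.1e-12), and it overlaps Phykpl on the opposite strand. The shUSP9X libraries of Hnrnpab were both above both controls. Hnrnpd (0.33), which binds AU-rich elements in mRNA, Hnrnpa0 (0.32), a gene of the same A/B group, and Hnrnpc (0.22), which binds tracts of U, were higher as well.

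Hnrnpa1, the best studied antagonist of SR proteins, had CPM of 1014 and 865 in shCtrl and of 1031 and 999 in shUSP9X. The groups overlapped, and the log2 fold change of 0.11 (SE 0.05, adjusted p = 0.033) became 0.00 (adjusted p = 0.96) without shCtrl replicate 2 and 0.09 (adjusted p = 0.18) without shUSP9X replicate 1. Shared words made up 54.1% of its transcripts. Hnrnpk, which binds C-rich sequence, and Hnrnpul1 and Hnrnpul2, relatives of Hnrnpu, did not pass the test, with log2 fold changes of 0.04, 0.05 and 0.08. Hnrnpk and Hnrnpul2 stood at 0.11 and 0.16 without shCtrl replicate 1, and at -0.01 and 0.00 without shCtrl replicate 2. With the trend removed, Hnrnpk and Hnrnpul2 were called higher, as given below.

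Of the Srrm and Srek1 genes, 3 of 5 tested were lower and 1 was higher (60% and 20%, against 33.6% and 33.8% of all genes). Once the trend in GC content and length was removed, 2 were lower and 2 higher, against 25.4% and 38.6% of all genes. Srek1 had the largest change of all members before removal of that trend. It encodes a splicing regulator rich in glutamic acid and lysine as well as in arginine and serine. With the trend removed, Srek1 stayed lowest (-0.81), while Hnrnpu (1.32), Srsf6 (0.96) and Srsf3 (0.96) changed more. The CPM of Srek1 were 59.4 and 59.1 in shCtrl and 27.3 and 23.7 in shUSP9X, a log2 fold change of -1.21 (SE 0.08, adjusted p = 4.2e-13). The control libraries were almost equal and lay far above both knockdown libraries, and only 0.309% of its words are shared. Srek1ip1, named for its protein's interaction with SREK1, had 19.4 and 19.5 CPM against 11.4 and 12.5 (-0.71, SE 0.12, adjusted p = 8.3e-06). It overlaps Cwc27 on the opposite strand, and with the trend in GC content and length removed its value was 0.05 (adjusted p = 0.71).

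Srrm1 and Srrm2 encode splicing coactivators, of which SRRM2 is a scaffold of nuclear speckles. Srrm1 had CPM of 171 and 171 in shCtrl and of 256 and 255 in shUSP9X (0.58, SE 0.04, adjusted p = 1.7e-12). This fell just short of the 1.5-fold cutoff, which is 0.585 on the log2 scale. Srrm2 moved the other way and little, with 646 and 650 CPM against 593 and 609 (-0.11, SE 0.03, adjusted p = 0.0065). Without shUSP9X replicate 1 it was -0.09 (adjusted p = 0.20) and without shUSP9X replicate 2 it was -0.13 (adjusted p = 0.054). Its direction also turned with the trend in GC content and length removed (0.68). Srrm4, known for the inclusion of microexons in neurons, was counted only 76 and 87 times in shCtrl and 76 and 60 times in shUSP9X (-0.41, SE 0.23, adjusted p = 0.11).

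**Figure D2:**
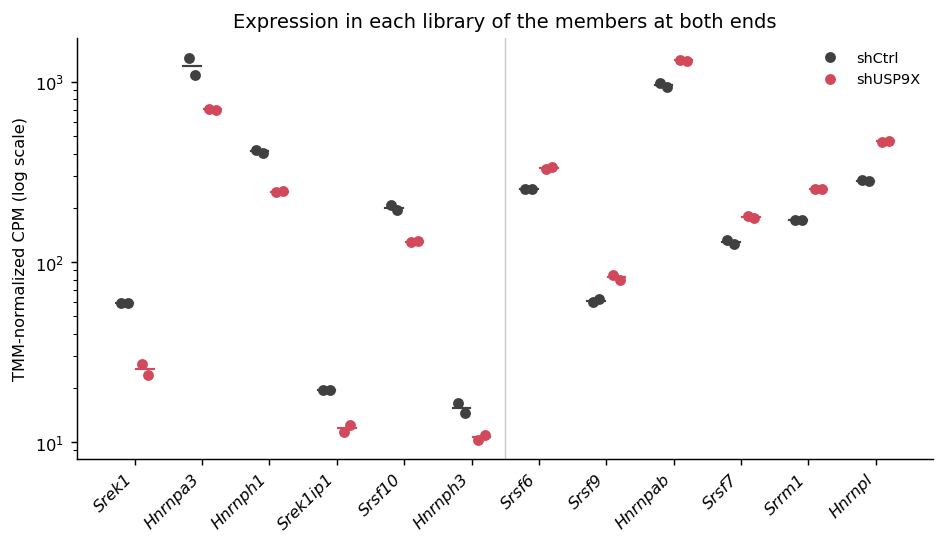
CPM (TMM-normalized, log axis) in each library of the 6 members with the most negative and the 6 with the most positive log2 fold changes. Points are libraries, grey for shCtrl and red for shUSP9X, and short lines are group means; in all 12 genes the groups lie apart, from 59.2 to 25.5 CPM on average in Srek1 and from 283 to 468 in Hnrnpl.

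Levels were compared between genes as FPKM, which is scaled to transcript length. In shCtrl, Hnrnpa3 ranked first among the members at 796 and 628 FPKM, followed by Hnrnpa2b1 (637 and 526), Hnrnpa1 (618 and 534) and Hnrnpab (573 and 548). The shCtrl ranges of neighbours in this order overlapped for each of these 4 genes. In shUSP9X, Hnrnpab ranked first at 751 and 740 FPKM, ahead of Hnrnpk (597 and 614), Hnrnpa1 (599 and 584) and Hnrnpf (536 and 525), and Hnrnpa3 ranked sixth at 425 and 422 FPKM. Hnrnpab stood clear of Hnrnpk there, whereas the libraries of Hnrnpk and Hnrnpa1 overlapped. The FPKM of Hnrnpk were 521 and 523 in shCtrl and 597 and 614 in shUSP9X, while its CPM were 979 and 907 against 978 and 966, so its level per length and its count did not move alike.

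All members together had 6759 and 6225 FPKM in shCtrl and 6529 and 6504 in shUSP9X, and 1.40% and 1.301% of the counts against 1.32% and 1.32%. The knockdown libraries lay between the controls on both scales. The Srsf genes summed to 1081 and 1049 FPKM against 1140 and 1155, and the Hnrnp genes to 5521 and 5024 against 5233 and 5190. Within the Hnrnp sum, the share of Hnrnpa3 was 14.4% and 12.5% in shCtrl and 8.11% and 8.13% in shUSP9X, and that of Hnrnpab was 10.4% and 10.9% against 14.3% and 14.3%. Within the Srsf sum, Srsf5 held 15.3% and 14.1% against 9.30% and 9.59%, and Srsf2, the most abundant, held 20.5% and 21.6% against 23.0% and 23.3%.

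Ratios of FPKM between related members were also compared. The groups did not overlap in any of the 14 ratios computed, which were taken within a library. For single genes, CPM did not overlap in 82.3 percent of all genes, and no share over other gene pairs is given. From counts, the difference in log2 fold change was only -0.01 for Srsf4 less Srsf6. The ratios are given without a test, since 2 libraries against 2 cannot reach a permutation p below 0.333. The FPKM of Srsf5 were 1.97 and 1.68 times those of Srsf6 in shCtrl and 0.882 and 0.891 times in shUSP9X. The order of these paralogs thus turned around. Hnrnpa3 stood at 1.29 and 1.18 times Hnrnpa1 in shCtrl and at 0.709 and 0.723 times in shUSP9X. Srrm1 stood at 0.721 and 0.643 times Srrm2 and then at 1.11 and 1.12 times, and with Hnrnpa3 and Hnrnpa2b1 these made 4 pairs in which the more abundant gene differed between the groups. Hnrnpl exceeded Hnrnpll by 5.66 and 5.46 times in shCtrl and by 8.33 and 8.94 times in shUSP9X. Srsf7 was at 0.701 and 0.714 times Srsf3 and then at 0.997 and 0.972 times. The genes of each of these 2 pairs kept their order. These ratios carry no correction for the trend with GC content and length described below. With it removed, the difference in log2 fold change between the genes of a pair took the other sign in 3 of the 14 pairs, going from 0.69 to -0.21 for Srrm1 less Srrm2, from 0.39 to -0.61 for Srsf7 less Srsf3 and from 0.33 to -0.46 for Srsf9 less Srsf1. It went from 0.73 to 0.23 for Hnrnpl less Hnrnpll, from -0.92 to -0.58 for Hnrnpa3 less Hnrnpa1 and from -0.90 to -1.25 for Srsf5 less Srsf6. The higher rank of Srrm1 in shUSP9X is thus given for uncorrected FPKM only. Which pairs changed sign depended on the transcript used for GC content and length. With the longest coding transcript, Srsf7 (1.27) stood above Srsf3 (at most 0.96) and Srsf9 (at least 0.13) above Srsf1 (-0.16), so neither pair took the other sign. Hnrnpr (1.49) then stood above Hnrnpu (1.13), against the sign without the removal.

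The fold changes of members went with the base composition of their transcripts, as they did across the table. The median GC content of the transcript was 44.7% over the 35 tested members and 50.4% over all genes. Spearman's rho between log2 fold change and GC content was 0.50 across the 35 members and 0.44 across 11430 genes, all values from the same 4 libraries. Genes are not independent replicates, and rho is given as a description. Of 18 members with under 45% GC, 10 were lower and 4 higher (55.6% and 22.2%), where 71.2% and 8.62% of all genes in that range were. Of 17 members with more GC, 4 were lower and 9 higher (23.5% and 52.9%), where 23.0% and 40.8% of all genes were. Srek1 (44.7% GC), Hnrnpa3 (41.3%), Hnrnph1 (43.6%), Srek1ip1 (40.6%), Srsf10 (42.5%) and Hnrnph3 (44.1%), the 6 largest decreases, were all below 45%. Srsf6 rose at 42.8% GC, and the other 5 of the 6 largest increases lay between 46.4% (Srsf7) and 56.2% (Srsf9).

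**Figure D3:**
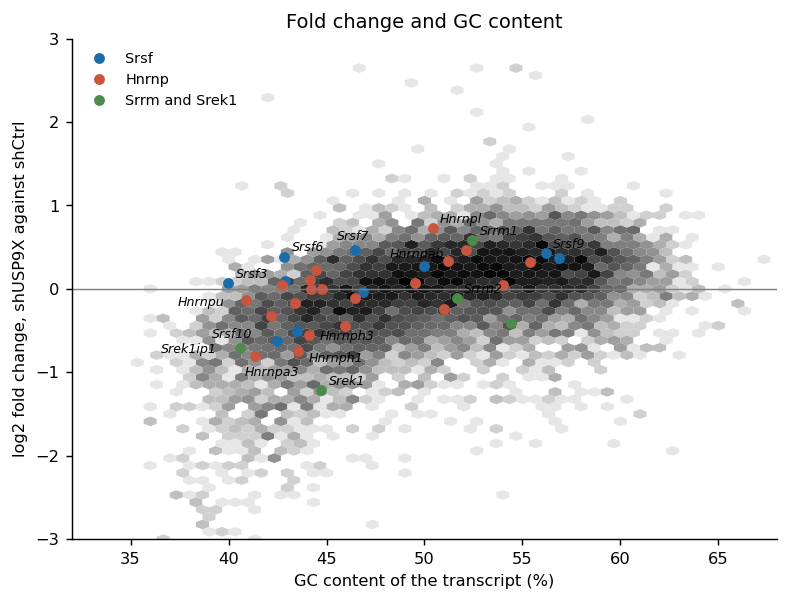
Log2 fold change (shUSP9X against shCtrl) against the GC content of the transcript in percent. Grey hexagons are all genes tested with a transcript (darker for more genes, log shading), and coloured points are the members by family; the 6 largest decreases lie under 45% GC and the all-gene cloud slopes the same way (rho 0.44).

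Removing the trend with GC content and transcript length from the counts gave a higher log2 fold change for 23 members and a lower one for 12. With the trend removed, 7 members were lower, where 25.4 percent of all genes were, and 21 were higher, where 38.6 percent of all genes were, by the same adjusted threshold. The median was 0.15 for members and 0.08 for all genes. Srek1 (-0.81), Hnrnph1 (-0.40), Hnrnpm (-0.36), Hnrnpr (-0.29), Srsf5 (-0.29) and Hnrnpa3 (-0.27) were still lower, and Srrm4 (-0.57, adjusted p = 0.027) joined them. The direction of Hnrnpr depended on the transcript used for GC content and length, since with the longest coding transcript it stood at 1.49. Hnrnpa3 and Srrm4 stood at -0.71 and -0.26 with that transcript. Srrm4 had only 60 to 87 counts per library. Srsf10 (-0.05, adjusted p = 0.25), Srek1ip1 (0.05, adjusted p = 0.71) and Hnrnph3 (-0.27, adjusted p = 0.063) no longer passed. Hnrnpl (0.58), Srrm1 (0.47), Srsf7 (0.35), Hnrnpab (0.28) and Srsf9 (0.15) were higher under both, and Srsf6 went from 0.39 to 0.96. The other genes called higher under both were Srsf1 (0.61), Hnrnpc (0.38), Hnrnpa1 (0.31), Srsf4 (0.18), Hnrnpa0 (0.15), Srsf2 (0.14) and Hnrnpd (0.13). With the longest coding transcript, Srsf1 turned to -0.16, whereas Hnrnpd and Srsf7 stood at 1.39 and 1.27. Of the genes that had not passed the test, 5 were then higher, namely Srsf3 (0.96, adjusted p = 9.0e-19), Hnrnpll (0.35), Hnrnpk (0.27, adjusted p = 2.7e-09), Hnrnpul2 (0.21, adjusted p = 1.6e-04) and Hnrnpf (0.18, adjusted p = 2.4e-06, but -0.07 with the longest transcript). Called decreases turned to increases in Hnrnpu, Srrm2 (0.68, adjusted p = 1.8e-16) and Hnrnph2 (0.20, adjusted p = 0.0013). Hnrnpa2b1 (0.08, adjusted p = 0.12) and Hnrnpdl (0.02, adjusted p = 0.72) also changed sign, without passing. The largest shift was that of Hnrnpu, whose assigned transcript of 7640 bases is long and holds 40.9% GC, from -0.13 to 1.32. Its deposited count and FPKM (20283 and 348 in shCtrl replicate 1) imply a much shorter transcript, so the size of that shift is uncertain. The same removal took Usp9x, the gene targeted by the shRNA, from -3.85 to -1.91. The cause of the trend was not tested.

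**Figure D4:**
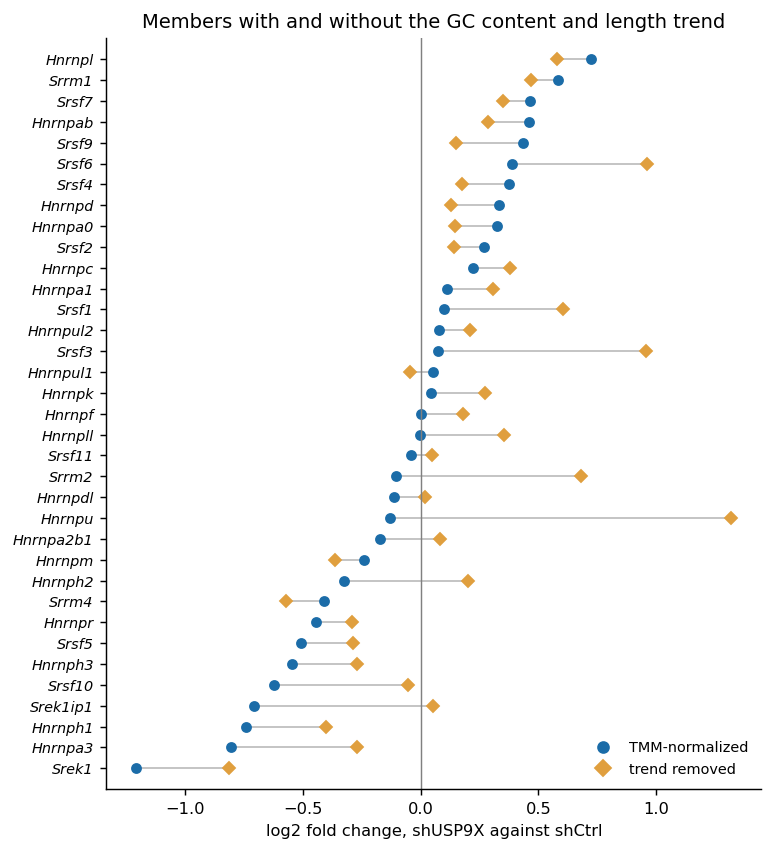
Log2 fold change of the 35 members in shUSP9X against shCtrl from TMM-normalized counts (circles) and with the trend in GC content and length removed (diamonds), joined by a line per gene. Srek1 stays lowest (-1.21 and -0.81), and Hnrnpu, whose assigned transcript is longer than its count and FPKM imply, shifts most (-0.13 and 1.32).

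Annotated splice forms were also counted. At least 1 transcript annotated as a target of nonsense-mediated decay was listed for 24 of 35 members (68.6%) and for 29.6% of all genes tested, and a transcript with a retained intron for 27 members (77.1%) and 60.3% of all genes. Among Srsf genes, 9 of 10 had an annotated decay form, and among Hnrnp genes, 10 of 20 had one. The members also had more annotated transcripts, with a median of 8 against 5 over all genes, and the shares were not adjusted for that. The deposited gene counts do not separate these forms, so which of them changed was not analysed here. Of 15 genes of nonsense-mediated decay and the exon junction complex, 11 were higher (73.3%, against 33.8% of all genes). The 3 lower genes made up 20%, against 33.6% of all genes, and the median of the 15 was 0.29. The 3 that fell included Upf2, a core decay factor, with counts of 875 and 806 in shCtrl and of 161 and 143 in shUSP9X (-2.61, SE 0.10, adjusted p = 5.3e-18), and the extreme in the other direction was Eif4a3, an exon junction helicase (0.70, adjusted p = 6.3e-13). With the trend removed, Upf2 stood at -1.91 and Eif4a3 at 0.46.

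Other genes of the splicing pathway were set beside the members. Of 20 SR-related proteins outside the symbol rule, 11 were lower and 6 higher (55% and 30%), where 33.6% and 33.8% of all genes were. Their median was -0.22. Pnisr, an SR-related speckle protein, had counts of 1737 and 1448 in shCtrl and of 476 and 425 in shUSP9X (-1.96, SE 0.07, adjusted p = 1.1e-18), or -1.10 with the trend removed. Rnps1, which binds near exon junctions, was higher (0.61, adjusted p = 4.5e-13), and stood at 0.40 with the trend removed. Of 9 hnRNPs under other symbols (median 0.29), 7 were higher and 2 lower (77.8% and 22.2%, against 33.8% and 33.6% of all genes). The lowest was Cirbp, the cold-inducible RNA-binding protein, at -0.49 (adjusted p = 0.026, or -0.75 with the trend removed). The highest was Ptbp1, the polypyrimidine tract binder, at 0.69 (adjusted p = 3.1e-15). Among the kinases that phosphorylate SR proteins and their import receptors, 12 of 13 were tested (median -0.22). Of these, 7 were lower and 3 higher (58.3% and 25%, against 33.6% and 33.8% of all genes). Prpf4b, a spliceosomal kinase, had counts of 2076 and 1724 against 525 and 462 (-2.09, SE 0.07, adjusted p = 9.7e-20), and with the trend removed it stood at -0.55. Tnpo2, an import receptor, was the highest of that list (0.76, adjusted p = 5.1e-12).

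Of 36 other splicing regulators in the table, 28 were tested. Among them 12 were lower and 8 higher (42.9% and 28.6%, against 33.6% and 33.8% of all genes), and their median was -0.12. They ran from Matr3, a nuclear matrix protein, at -1.49 (adjusted p = 2.9e-20) to Elavl1, which stabilises AU-rich mRNA, at 0.49 (adjusted p = 1.5e-09). With the trend removed these stood at -0.97 and 0.91. Of the 59 genes of the core spliceosome, 46 were higher and 8 lower (78.0% and 13.6%), where 33.8% and 33.6% of all genes were, and the median was 0.39. The extremes were Cwc22, a splicing factor that loads the exon junction complex (-1.10, adjusted p = 3.4e-12), and Sf3a2, a subunit of the U2 particle (1.18, adjusted p = 1.6e-14). With the trend removed, 46 core genes were higher and 4 lower, where 38.6% and 25.4% of all genes were, and the core median was 0.35. The other lists moved more. The median became -0.01 for the SR-related proteins (9 lower, 6 higher), -0.02 for the kinases and import receptors (4 lower, 3 higher) and 0.07 for the hnRNPs under other symbols (1 lower, 4 higher). That of the other splicing regulators turned to 0.09 (10 lower, 12 higher), and that of the decay and exon junction genes was 0.23 (2 lower, 10 higher). No test of one list against another was run, and genes of a list are not replicates.

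**Figure D5:**
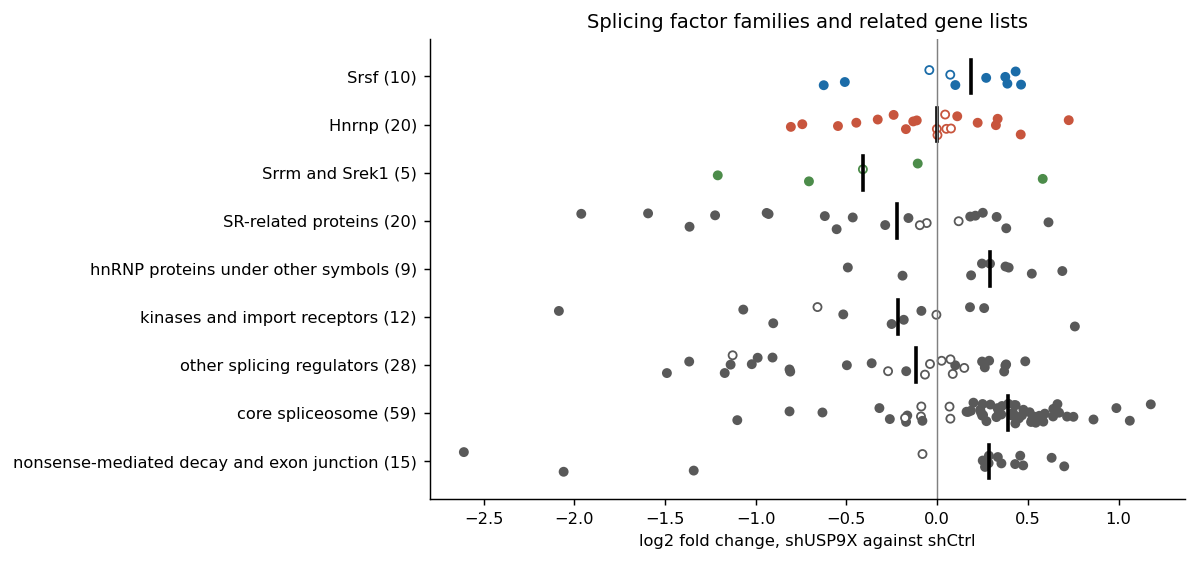
Log2 fold change (shUSP9X against shCtrl) of each tested gene in the 3 member groups (coloured) and in 6 related lists (grey), with the number tested in brackets. Filled points had an adjusted p under 0.05, black bars are medians, and vertical scatter carries no value; the core spliceosome median lies at 0.39 and that of the Hnrnp genes at 0.00.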

How the data were processed

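Per gene and library, the authors deposited estimated counts without normalization, of which 6.40% to 6.69% were not whole, and FPKM, scaled to transcript length and library size. Reads were mapped to GRCm38 and quantified with StringTie 1.3.1, per the methods. The submitters' processing notes also name fastp 0.18.0, Bowtie2 2.2.8, HISAT2 and RSEM. The annotation release is not given in the sources used here. Molecular identifiers are not described, so floors cover counting error only.

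Counts were rounded (the test had been planned for whole counts), filtered with filterByExpr, scaled by TMM and passed to the edgeR 4.0.16 quasi-likelihood test in R 4.3.3, with Benjamini-Hochberg adjustment over 11448 genes, after checks on simulated data. The common biological coefficient of variation was 0.0352. GC content and length came from the GENCODE M21 coding transcript nearest to the length implied by the deposited count and FPKM, a choice made after values with the longest coding transcript had been seen. For Hnrnpu, the transcript chosen in this way was still much longer than the implied length. The trend was removed by loess (span 0.3) as an offset; its use on differences between related members was added after seeing the data. Alternatives were DESeq2 1.42.0, limma 3.58.1 on log2 FPKM, other scalings and filters, a replicate block and leaving out each library. Shared words are 50-base stretches found in transcripts of another gene.

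The members are set by symbol, but the families, gene lists and tests were chosen with earlier results of these data known. Values in every library are given for the 6 lowest and 6 highest members past the test and the 3 with the highest mean FPKM (Hnrnpab, Hnrnpa1 and Hnrnpa3). From each context list, the lowest and highest gene past the test are named. Other genes were named after their values were seen. The values of 1 leukocyte marker are not reported here.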

Additional observations from a re-analysis of the deposited data

How the results depend on the processing

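Of the 27 called members, 22 kept call and direction in every setting without the GC content and length offset, and 16 kept them in every setting run. The counts of members at an adjusted p under 0.05 were 7 lower and 21 higher with the offset, 7 and 22 with a replicate block and the offset, and 9 and 21 with the offset from the longest coding transcript, an alternative added after seeing the data. Of all genes, 25.4%, 25.5% and 25.6% were lower and 38.6%, 38.9% and 39.1% were higher in these settings. The median of members became 0.15, 0.15 and 0.16. At the 1.5-fold cutoff the offset left 1 member lower and 5 higher (1 and 5 with the block, 2 and 8 with the longest transcript), where 12.0%, 11.9% and 12.1% of all genes were lower and 13.2% were higher under each. At that cutoff 2 members were higher with upper quartile scaling, without the low-count filter and in DESeq2, where 12.2%, 9.39% and 8.32% of all genes were. Leaving out each library gave medians of the members from -0.02 to 0.04.

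With the offset, the offset with the block and the offset from the longest transcript in that order, direction reversed for Srek1ip1 (0.051, 0.051, 0.016), Hnrnph2 (0.20, 0.20, 0.49), Hnrnpa2b1 (0.081, 0.086, 0.035), Hnrnpu (1.32, 1.32, 1.13), Srrm2 (0.68, 0.68, 0.60) and Hnrnpll (0.35, 0.35, 0.23). It reversed for Hnrnpdl (0.019, 0.020) with the first pair, and with the longest transcript alone for Hnrnpr (1.49), Hnrnpf (-0.067) and Srsf1 (-0.16). Of the genes just named, Hnrnpll and Hnrnpf were uncalled without the offset, at -0.00 and 0.00. Srsf11 (0.048, 0.048, 0.19) and Hnrnpul1 (-0.047, -0.047, -0.054), uncalled as well, also changed sign. Between Srsf11 and Hnrnpul1, only Srsf11 with the longest transcript passed the test. The cause was not tested.

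The replicate numbers were not taken as pairs in the main test. The correlation over genes of same-numbered deviations from the group means was -0.05. With 2 libraries per group their deviations mirror each other, so this is a single comparison and cannot settle whether the libraries were paired. The replicate block alone gave 14 lower and 13 higher members and changed no call. Low counts, as for Hnrnph3, Srek1ip1 and Srrm4, gave the largest standard errors among members.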
